A study of Mus musculus with 12 samples.

Results

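Diacylglycerol kinases are the enzymes that phosphorylate diacylglycerol to phosphatidic acid, and the mouse genes Dgka, Dgkb, Dgkd, Dgke, Dgkg, Dgkh, Dgki, Dgkk, Dgkq and Dgkz were followed here by their names in a table of RNA read counts. These 10 genes are 10 of the 44345 gene names in the table. All 10 passed the filter on low counts, as did 16238 genes altogether. RNA came from whole sciatic dorsal root ganglia (DRG, levels L4 to L6) of C57BL/6 mice aged 5 to 8 weeks. SH Sham mice had 10 days of standard housing (SH) and then sham surgery, and SH SNA mice had the same housing and then sciatic nerve axotomy (SNA), which cuts the peripheral axons of these neurons. EE Sham and EE + SNA mice spent those 10 days in environmental enrichment (EE) before sham surgery or SNA, and all ganglia were taken 24 h after surgery. Each group had 3 samples, each pooled from 2 mice. The comparisons ask what injury, enrichment and both together do to the transcripts of the ganglion.

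Diacylglycerol is released at the plasma membrane when phospholipase C cuts phosphatidylinositol bisphosphate, and it recruits protein kinase C, protein kinase D, Ras exchange factors and some ion channels. By converting diacylglycerol, the kinases end that signal and at the same time supply phosphatidic acid, itself a lipid messenger and a step in the resynthesis of phosphatidylinositol. The family is sorted into types by its domains. Type I (Dgka, Dgkb, Dgkg) binds calcium through EF hands, type II (Dgkd, Dgkh, Dgkk) carries a pleckstrin homology domain, and type III (Dgke) prefers diacylglycerol with an arachidonoyl chain. Type IV (Dgki, Dgkz) has ankyrin repeats and a MARCKS-like stretch, and type V (Dgkq) has an additional C1 domain.

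The transcripts of most family members were lower after SNA, and those of Dgka and Dgkd were higher. Over both housings, in an additive model of housing and surgery on all 12 samples, 8 of 10 members passed the test after adjustment over all genes. Of these, 6 fell (Dgkb, Dgke, Dgkg, Dgkh, Dgki and Dgkz) and 2 rose (Dgka and Dgkd), against 22.4% of the 16238 genes called in either direction, 11% called lower and 11.4% called higher. The median log2 fold change of the members was -0.29, beside 0.0071 for all genes tested. When the counts were scaled by 8 sensory neuron genes in place of edgeR's TMM factors, which raised the median of all genes to 0.11, 6 members passed, 3 of them higher (Dgka, Dgkd and Dgkq) and 3 lower (Dgkg, Dgkh and Dgkz). For 5 members the 6 SNA samples and the 6 Sham samples did not overlap, whereas 11.1% of all genes showed such a separation. Dgkd was the member above every Sham sample, and Dgke, Dgkg, Dgkh and Dgkz were below every one. Of the 10 members, 8 (all but Dgkk and Dgkq) also stand in a network that the study drew from genes differing in EE + SNA, so their counts there are not independent evidence.

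In the pairwise comparisons, each fitted on its own 6 samples, SNA under standard housing gave 5 called members. Dgkd rose and Dgke, Dgkg, Dgkh and Dgkz fell, beside 11.2% of all genes called in SH SNA against SH Sham. At an unadjusted p of 0.05, the threshold of the study, 8 members were called there, beside 25.2% of all genes. EE + SNA against SH Sham gave 4 called members, with Dgkd higher and Dgkg, Dgkh and Dgkz lower, beside 12.5% of all genes, and 8 at the unadjusted threshold, beside 27.2%. Of these 4 calls, that of Dgkg held in all 6 fits that left out 1 library, that of Dgkd in 0, that of Dgkh in 1 and that of Dgkz in 2. Both comparisons share the SH Sham samples. EE + SNA against EE Sham gave 1 called member, Dgkg, which fell, beside 4.83% of all genes, and 8 at the unadjusted threshold, beside 20.6%. Enrichment alone, EE Sham against SH Sham, gave 0 called members by edgeR's quasi-likelihood test, 0 at an unadjusted p of 0.05 and 0 by DESeq2, where 0.00616% and 2.97% of all genes were called after and before adjustment.

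Reads counted on genes numbered 11343579 to 22871460 per sample, of which 7288 to 18581 fell on the 10 members. EE + SNA replicate 2 was the most deeply sequenced. Markers of sensory neurons, satellite glia and Schwann cells were all present, with none of them at 0 in any group, and the injury gene Atf3, a transcription factor, rose 4.34-fold in SH SNA, with the adjusted p of 7.4e-08 from edgeR's quasi-likelihood test. The other injury genes, Sprr1a, Gap43, Sox11, Jun and Gal, rose too. The sum of the 8 sensory neuron genes was 7804 to 8626 CPM (counts scaled to the size of the library, with TMM factors) in SH Sham and 7543 to 7876 CPM in EE Sham. It was 7062 to 7697 CPM in SH SNA and 7177 to 7513 CPM in EE + SNA, and 4 of the 8 genes were lower over both housings after adjustment. The 9 macrophage genes summed to 73.8 to 80.4 CPM in SH Sham and 66.2 to 78.0 CPM in EE Sham, against 83.9 to 114 CPM in SH SNA and 85.3 to 121 CPM in EE + SNA. The 5 Schwann cell genes summed to 6696 to 8164 CPM in SH Sham and 5902 to 8348 CPM in EE Sham. After SNA they summed to 7134 to 10592 CPM in SH SNA and 8656 to 11435 CPM in EE + SNA. Of these 5 genes, 4 were higher over both housings after adjustment. Skeletal muscle genes summed to 725 CPM in SH SNA replicate 2, against 25.8 and 29.4 CPM in the other samples of that group. The part of these cell markers in the differences between groups was not tested. In whole ganglia, fewer cells of a type and less RNA per cell cannot be told apart. The paper names EE Sham as an already described dataset, whereas no label names a batch. If its samples were handled apart, that cannot be told apart from housing in EE Sham against SH Sham. Nor can it be told apart from surgery in EE + SNA against EE Sham. The tests on all 12 samples use the same EE Sham samples, so this limit reaches them too.

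Levels of different genes were compared as FPKM, which divides reads by gene length. In SH Sham, Dgkz had 63.5 ± 6.71 FPKM (SD, n = 3) and Dgkh 56.2 ± 2.70 FPKM, and the samples of both overlapped. These levels were above those of 94.1% and 93.4% of the tested genes that have FPKM. Dgki followed with 11.8 ± 1.23 FPKM, apart from its neighbours in the order on both sides. Dgkd (6.77 ± 0.361 FPKM) and Dgkq (6.51 ± 0.480 FPKM) overlapped, as did Dgka (5.44 ± 0.218 FPKM) and Dgke (5.03 ± 0.272 FPKM). Dgkg (3.72 ± 0.212 FPKM), Dgkb (3.18 ± 0.157 FPKM) and Dgkk (0.749 ± 0.0464 FPKM) closed the order, each below every sample of the gene before it. Dgkz and Dgkh together made up 73.1% to 74.1% of the FPKM of the family in SH Sham. The FPKM of Dgkh imply a gene length of 3.99 kb, whereas its annotated exons (GENCODE) cover 16975 bases. For Dgkz the lengths were alike, 6.30 kb and 6270 bases. The implied length was also the shorter for Dgka, Dgkb, Dgkd and Dgkg. The order, above all the place of Dgkh, and the shares thus depend on the lengths used.

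**Figure D1:**
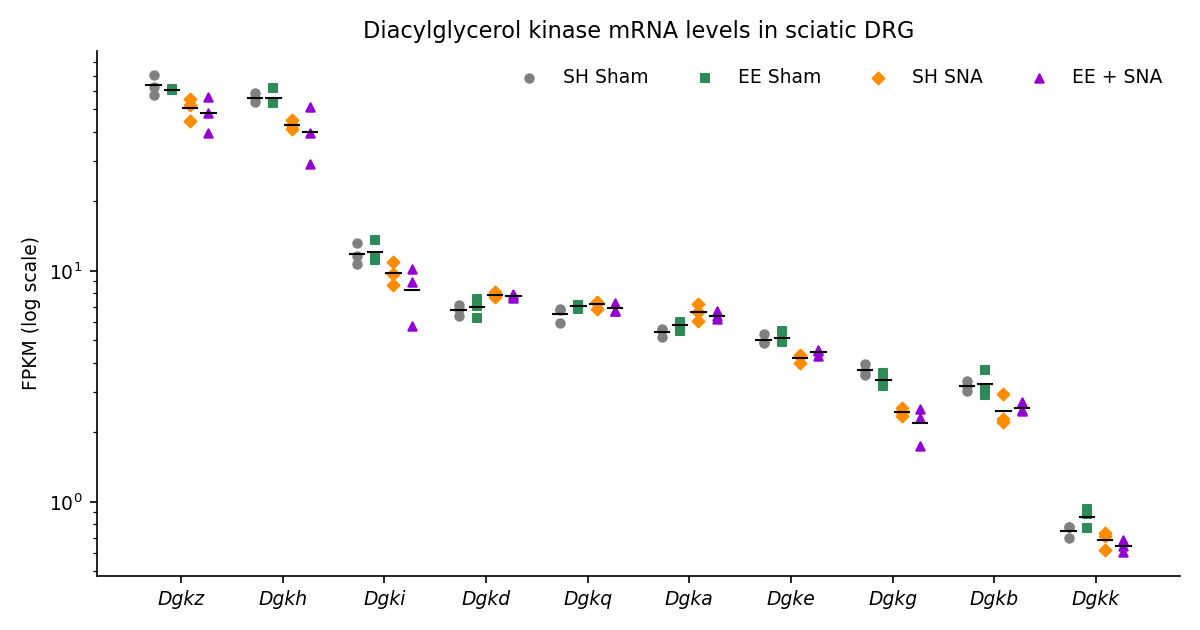
FPKM of the 10 diacylglycerol kinase genes on a log axis, ordered by their mean in SH Sham. Each point is 1 sample and each short line the mean of 3. Dgkz and Dgkh lie above 50 FPKM in every SH Sham sample, well above the other 8 genes, and Dgkk lies below 1 FPKM. The height of Dgkh depends on the gene length used for its FPKM.

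Summed over the family, FPKM were 152 to 175 in SH Sham and 158 to 170 in EE Sham. After SNA they were 126 to 143 in SH SNA and 105 to 149.8 in EE + SNA, so that no SNA sample reached the lowest Sham sample. The share of Dgkz and Dgkh in this sum was 72.2% to 72.9% in EE Sham, 68.3% to 70.0% in SH SNA and 65.4% to 72.1% in EE + SNA. As these 2 genes dominate the sum, it says little of the other members, and the part of Dgkh depends on the length used for it.

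The family is spread over 10 chromosomes. To show the sequence upstream of members that moved together, the stretch before the RefSeq transcription start furthest upstream is printed for the 3 members with the most reads or the largest fall (Dgkg, Dgkh and Dgkz) and for Dgkd, which rose. Sequences are from RefSeq (GRCm38.p6), 5′ to 3′ on the strand of the gene, and bases within annotated exons were left off. The RefSeq starts need not be the ends of the gene spans given with each member, which are from GENCODE, and the stretch of Dgkz lies inside that span, as do the windows counted for Dgkb, Dgke and Dgkq. Capitals mark matches on either strand to the GC box GGGCGG, the E-box CACGTG and the STAT motif TTCNNNGAA.
Dgkg, chr16:22657232-22657481, minus strand: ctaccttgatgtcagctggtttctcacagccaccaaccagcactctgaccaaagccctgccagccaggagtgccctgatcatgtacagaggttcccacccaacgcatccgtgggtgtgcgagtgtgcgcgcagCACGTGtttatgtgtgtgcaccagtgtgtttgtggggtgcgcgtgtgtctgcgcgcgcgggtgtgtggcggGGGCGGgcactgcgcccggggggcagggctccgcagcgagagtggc
Dgkh, chr14:78732777-78732979, minus strand: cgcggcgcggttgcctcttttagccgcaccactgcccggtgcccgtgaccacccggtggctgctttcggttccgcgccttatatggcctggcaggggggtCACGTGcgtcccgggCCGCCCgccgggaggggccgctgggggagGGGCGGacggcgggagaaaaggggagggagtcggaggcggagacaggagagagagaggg
Dgkz, chr2:91963658-91963813, minus strand: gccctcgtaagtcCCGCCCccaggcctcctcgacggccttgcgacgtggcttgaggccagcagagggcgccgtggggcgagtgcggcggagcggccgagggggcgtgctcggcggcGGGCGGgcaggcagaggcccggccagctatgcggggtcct
Dgkd, chr1:87853037-87853286, plus strand: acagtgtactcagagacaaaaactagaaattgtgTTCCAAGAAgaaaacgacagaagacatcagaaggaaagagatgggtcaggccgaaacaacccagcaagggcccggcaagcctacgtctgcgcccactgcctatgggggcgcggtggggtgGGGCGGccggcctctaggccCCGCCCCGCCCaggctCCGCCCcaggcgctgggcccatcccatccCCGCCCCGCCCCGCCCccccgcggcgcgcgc

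Motifs were counted in the whole RefSeq window of 300 bases (250 before and 50 after the start), on both strands, for the window furthest upstream of each member. The GC box was found in 6 of 10 members (Dgkd, Dgke, Dgkg, Dgkh, Dgkq and Dgkz), and in 35.7% of all 32851 windows. The E-box was found in Dgkg, Dgkh and Dgkq, and in 7.15% of all windows. TTCNNNGAA was found in Dgkd alone among the members, at position -216 from the start, and in 8.3% of all windows. The AP-1 motif TGACTCA (5.2% of all windows) and the CRE motif TGACGTCA (1.79%) were found in 0 members. Windows of the 6 members that fell held from 46.3% (Dgkb) to 77.7% (Dgkz) G and C, those of Dgka and Dgkd, which rose, 41.3% and 70.3%, and the median window 52.7%.

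Among the calcium-binding type I kinases, Dgkg (ENSMUSG00000022861, chr16:22468461-22657221, minus strand) had the largest fall of the family. Its reads were 19.8, 20.3 and 22.0 CPM in SH Sham replicates 1 to 3 and 20.7, 17.5 and 18.5 CPM in EE Sham. After SNA they were 13.1, 13.8 and 14.3 CPM in SH SNA and 13.1, 14.1 and 9.90 CPM in EE + SNA. All 6 SNA samples thus lay below all 6 Sham samples, and EE + SNA replicate 3 was the lowest. In SH SNA against SH Sham the log2 fold change was -0.59 (SE 0.091, adjusted p = 0.00132 by edgeR's quasi-likelihood test), and the call held with each library left out in turn and under all 10 other settings of test, scaling and filter. In EE + SNA it was -0.73 against SH Sham and -0.60 against EE Sham (adjusted p = 0.0226). The latter call was lost without EE Sham replicate 1 (-0.54), EE Sham replicate 3 (-0.63) or EE + SNA replicate 1 (-0.64).

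Dgka (ENSMUSG00000025357, chr10:128720134-128744855, minus strand), a type I kinase best known from T cells, moved the other way. It had 14.7, 15.4 and 15.7 CPM in SH Sham and 17.4, 16.5 and 15.5 CPM in EE Sham. After SNA it had 17.0, 18.9 and 20.3 CPM in SH SNA and 18.2, 17.3 and 19.1 CPM in EE + SNA. Every SH SNA sample was above every SH Sham sample, but the lowest SNA and the highest EE Sham samples crossed. Over both housings Dgka rose by a log2 fold change of 0.22 (SE 0.065, adjusted p = 0.0217), a call that was lost without SH Sham replicate 1 (0.19) or SH SNA replicate 3 (0.18). In SH SNA against SH Sham the value was 0.30, with an adjusted p of 0.0676. Of the 8 lymphocyte genes, which would mark T cells, 3 passed the filter on low counts, and their sum was 5.01 to 7.74 CPM in SH Sham and 6.08 to 8.55 CPM in SH SNA. It was 6.33 to 7.96 CPM in EE Sham and 7.56 to 11.0 CPM in EE + SNA, and the part of such cells in the Dgka counts was not tested.

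Dgkb (ENSMUSG00000036095, chr12:37817726-38634239, plus strand), the type I kinase of forebrain neurons, had 18.6, 17.5 and 16.7 CPM in SH Sham and 16.3, 12.4 and 12.7 CPM in SH SNA. In EE Sham it had 21.3, 15.9 and 17.0 CPM, and in EE + SNA 14.0, 13.8 and 15.3 CPM. SH SNA replicate 1 lay within the range of the Sham samples, and the 3 EE + SNA samples lay below all Sham samples. The log2 fold change over both housings was -0.34 (SE 0.084, adjusted p = 0.00742). Within standard housing it was also -0.34 and did not pass after adjustment (adjusted p = 0.0819). It passed without SH SNA replicate 1 (-0.48) and under 1 of the 10 other settings, the fit without a filter on low counts.

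**Figure D2:**
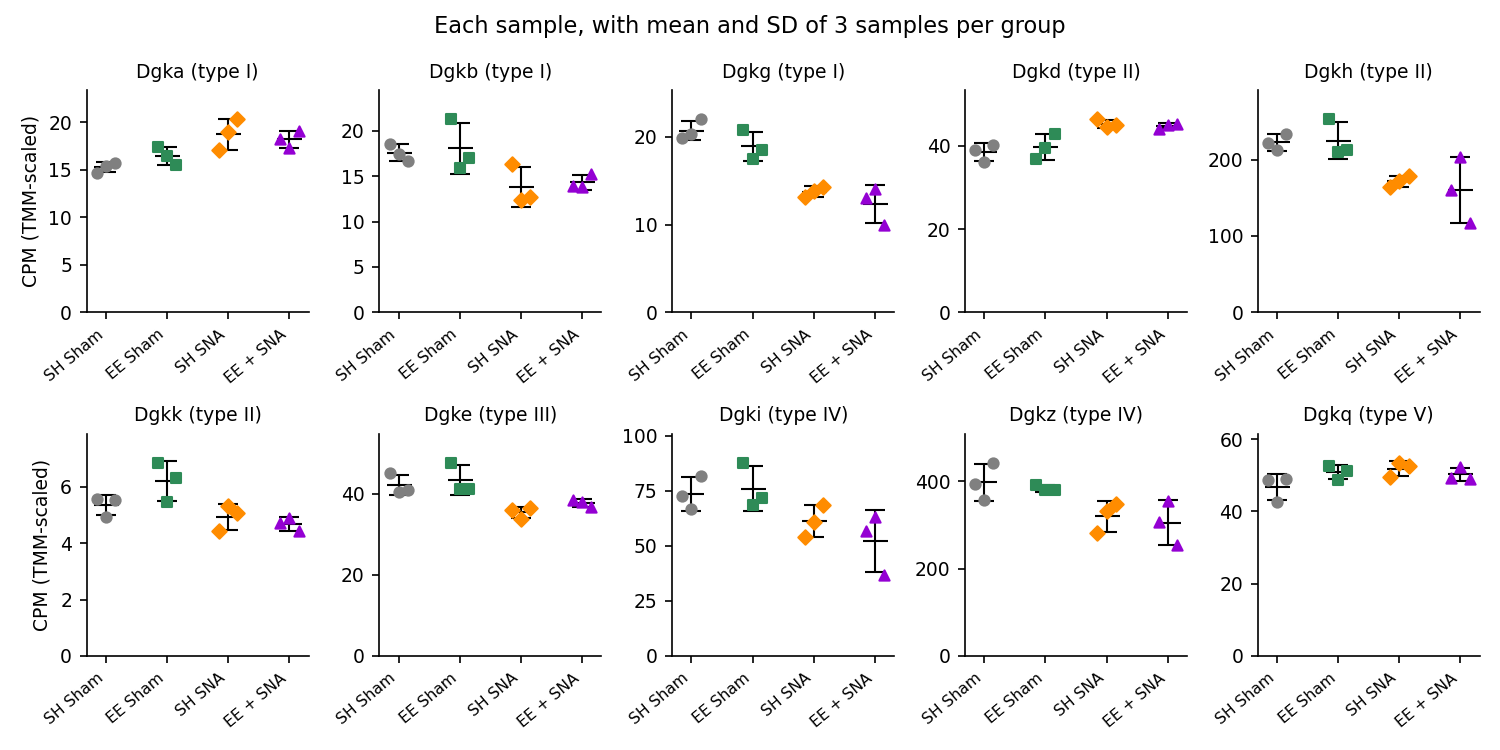
TMM-scaled CPM of each member in each of the 12 samples, with the mean and SD of the 3 samples of a group in black. Every axis starts at 0. In Dgkg and Dgkh the 6 SNA samples lie below the 6 Sham samples, in Dgkd above them, and EE + SNA replicate 3, the point furthest right, is the lowest sample of Dgkg, Dgkh, Dgki and Dgkz.

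Type II held members moving in opposite directions. Dgkh (ENSMUSG00000034731, chr14:78558750-78732776, minus strand) had 222, 212 and 234 CPM in SH Sham and 252, 210.2 and 212 CPM in EE Sham. After SNA it had 164, 172 and 179 CPM in SH SNA and 159.9, 204 and 117 CPM in EE + SNA. All SNA samples were below all Sham samples, and the spread was widest in EE + SNA, from 117 CPM in replicate 3 to 204 CPM in replicate 2. Dgkh fell by a log2 fold change of -0.37 in SH SNA (SE 0.056, adjusted p = 0.0011), with each library left out in turn as well, but not in a single fit of all 12 samples with 4 groups (adjusted p = 0.0854). Against SH Sham the EE + SNA value was -0.47 (adjusted p = 0.0466), and without EE + SNA replicate 3 it was -0.29 (adjusted p = 0.0558). That call was lost in 5 of the 6 fits that left out 1 library.

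Dgkd (ENSMUSG00000070738, chr1:87853287-87945180, plus strand), which shares with Dgkh a sterile alpha motif through which the enzyme self-associates, rose. It had 39.1, 36.0 and 40.2 CPM in SH Sham and 36.8, 39.6 and 42.9 CPM in EE Sham. In SH SNA it had 46.4, 44.5 and 45.0 CPM and in EE + SNA 44.1, 45.1 and 45.2 CPM. The SNA samples formed a narrow band above all Sham samples, and the nearest of these was EE Sham replicate 3. In SH SNA against SH Sham the log2 fold change was 0.24 (SE 0.068, adjusted p = 0.0422). This call was close to the threshold and was lost when any one of the 6 libraries was left out, with values from 0.20 to 0.27, and it held under 3 of the 10 other settings. Over both housings, with 12 samples, it was 0.20 (SE 0.047, adjusted p = 0.00428) and passed with each library left out.

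Dgkk (ENSMUSG00000062393, chrX:6779306-6948363, plus strand), the remaining type II kinase, had the fewest reads, 53 to 113 per sample. Its values were 5.57, 4.94 and 5.54 CPM in SH Sham and 4.43, 5.32 and 5.09 CPM in SH SNA, and these groups overlapped. EE Sham had 6.85, 5.46 and 6.33 CPM and EE + SNA 4.71, 4.91 and 4.43 CPM, without overlap. Between these 2 groups Dgkk had a log2 fold change of -0.40 and did not pass (adjusted p = 0.159 by edgeR's quasi-likelihood test). Over both housings the log2 fold change was -0.26 with a 95% interval of -0.47 to -0.05, and it did not pass after adjustment (adjusted p = 0.0738).

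Dgke (ENSMUSG00000000276, chr11:89035179-89066850, minus strand), the type III kinase that acts on arachidonoyl-diacylglycerol in phosphatidylinositol turnover, had 45.0, 40.4 and 40.9 CPM in SH Sham and 47.6, 41.2 and 41.2 CPM in EE Sham. After SNA it had 35.9, 33.8 and 36.5 CPM in SH SNA and 38.5, 38.0 and 36.7 CPM in EE + SNA. All 6 SNA samples lay below all 6 Sham samples, and the 3 EE + SNA samples lay above the 3 SH SNA samples. The log2 fold change was -0.25 in SH SNA (SE 0.073, adjusted p = 0.0469) and this call was lost when any one of the 6 libraries was left out (-0.28 to -0.21), while 5 of the 10 other settings kept it. Over both housings it was -0.22 (SE 0.050, adjusted p = 0.00344), with each library left out as well. Between EE + SNA and SH SNA, where 10.4% of all genes did not overlap, Dgke differed by 0.09 on the log2 scale, with a 95% interval of -0.06 to 0.25 and an adjusted p of 0.989.

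The type IV kinases, which can enter the nucleus, both fell. Dgkz (ENSMUSG00000040479, chr2:91932824-91975864, minus strand) had 393, 358 and 442 CPM in SH Sham and 392, 379 and 380.2 CPM in EE Sham. In SH SNA it had 281, 331 and 348 CPM and in EE + SNA 307, 355 and 253 CPM. The highest SNA sample stayed just under the lowest Sham sample. In SH SNA against SH Sham the log2 fold change was -0.31 (SE 0.087, adjusted p = 0.0379), and the call was lost without SH Sham replicate 1 (-0.33), SH Sham replicate 3 (-0.23) or SH SNA replicate 1 (-0.23). It held under 6 of the 10 other settings. Over both housings it was -0.32 (SE 0.072, adjusted p = 0.00364).

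Dgki (ENSMUSG00000038665, chr6:36846022-37300184, minus strand) had 72.5, 66.6 and 81.9 CPM in SH Sham and 54.2, 61.0 and 68.7 CPM in SH SNA. EE Sham had 87.7, 68.7 and 71.7 CPM, and EE + SNA had 56.9, 63.3 and 36.5 CPM. SH SNA replicate 3 lay within the SH Sham range, and EE + SNA replicate 3 lay far under all other samples. Dgki fell by a log2 fold change of -0.39 over both housings (SE 0.11, adjusted p = 0.0134), and by -0.30 without EE + SNA replicate 3. Neither SH SNA (-0.26, adjusted p = 0.0843) nor EE + SNA (-0.48, adjusted p = 0.0510) passed against SH Sham, but without SH SNA replicate 3 the first value passed (-0.36), and without EE + SNA replicate 2 (-0.66) or replicate 3 (-0.29) the second passed. Under the 10 other settings the first passed in 2 and the second in 5.

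Dgkq (ENSMUSG00000004815, chr5:108646693-108669672, minus strand), the type V kinase, had 48.7, 42.6 and 49.0 CPM in SH Sham, 49.4, 53.4 and 52.5 CPM in SH SNA, 52.5, 48.7 and 51.2 CPM in EE Sham and 49.3, 52.4 and 49.1 CPM in EE + SNA. The SH SNA samples lay above those of SH Sham, while the EE groups overlapped. In SH SNA against SH Sham, Dgkq had a log2 fold change of 0.15 and did not pass (adjusted p = 0.219 by edgeR's quasi-likelihood test). Its log2 fold change over both housings was 0.07, with a 95% interval of -0.04 to 0.17, and did not pass (adjusted p = 0.358). The Dgkq counts are uncertain, because 30.8% of its exon bases also belong to exons of other genes, most of them to Tmem175 on the opposite strand, and the strand setting of the counting is not given in the sources used here. The other 9 members share less than 5% of their exon bases with other genes.

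No member passed the test for enrichment alone. Against SH Sham, 0 of 10 members were free of overlap in EE Sham, beside 7.61% of all genes, and the largest differences on the log2 scale were 0.21 for Dgkk (95% interval -0.11 to 0.53), -0.13 for Dgkg (-0.33 to 0.07) and 0.12 for Dgkq (-0.04 to 0.28). In EE + SNA against SH SNA, 0 members were called by edgeR after adjustment, 0 at an unadjusted p of 0.05 and 0 by DESeq2, beside 0% and 4.1% of all genes called after and before adjustment by edgeR. The largest differences were -0.22 for Dgki (-0.57 to 0.13), -0.14 for Dgkg (-0.43 to 0.14) and 0.09 for Dgke (-0.06 to 0.25), and the first became -0.02 without EE + SNA replicate 3. Whether SNA acted differently in EE and SH was tested by an interaction on all 12 samples, which called 0 members after and before adjustment, as did DESeq2 after it, beside 0% and 2.61% of all genes. Its largest values were -0.28 for Dgkk (-0.69 to 0.13), -0.26 for Dgki (-0.71 to 0.19) and -0.16 for Dgkq (-0.36 to 0.04), intervals that include differences as large as the SNA effects themselves. Over both surgeries, EE gave 0 called members (0 at an unadjusted p of 0.05, 0 by DESeq2), with 0% and 4.69% of all genes called, and the largest values were -0.14 for Dgkg, -0.08 for Dgki and 0.08 for Dgkk.

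**Figure D3:**
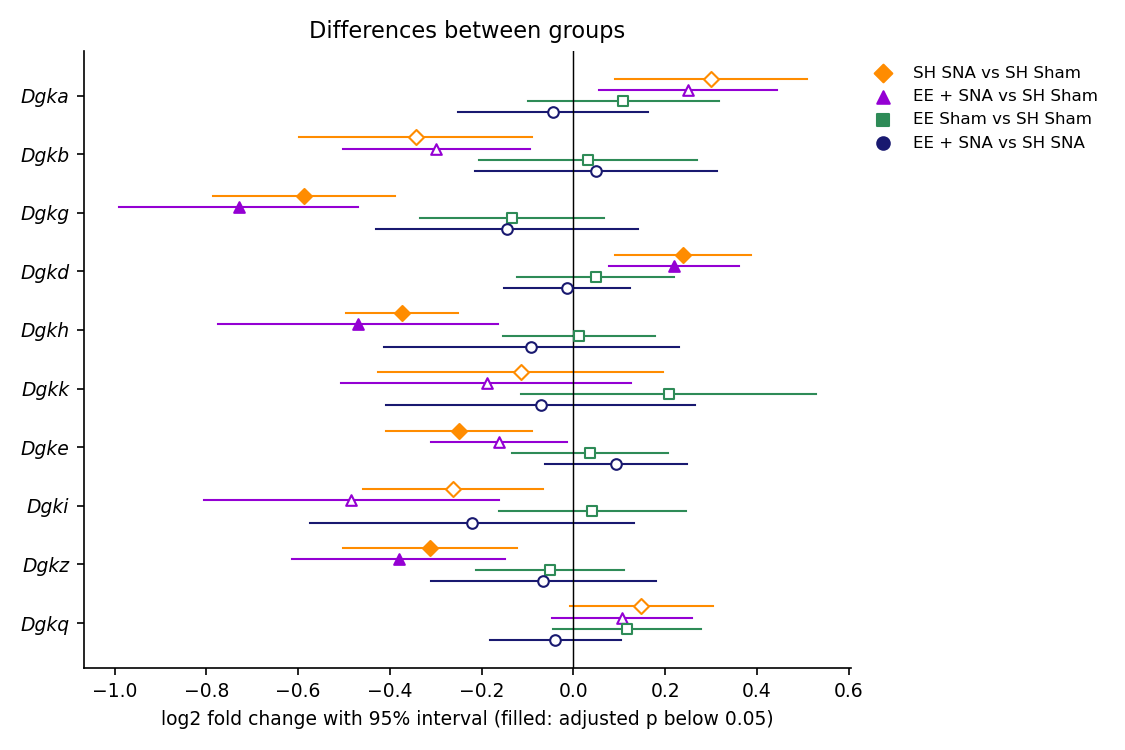
Log2 fold change of each member with its 95% interval, in 4 comparisons of 2 groups. Filled symbols passed an adjusted p of 0.05 in edgeR. Both comparisons of SNA groups with SH Sham lie left of 0 for 7 members and right of 0 for Dgka, Dgkd and Dgkq, whereas EE Sham against SH Sham and EE + SNA against SH SNA lie around 0.

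The ratio of the counts of 2 members within a sample was described for pairs within types I, II and IV, and no test is given, because these pairs were set side by side after the values of the members were known. Gene length and library scaling cancel when such a ratio is set against the same ratio in another sample. In type I, the ratio of Dgka to Dgkg averaged 1.78 times its Sham value after SNA, and that of Dgka to Dgkb 1.47 times. For Dgka over Dgkg the ratio of counts was 0.714 to 0.757 in SH Sham, 0.838 to 0.939 in EE Sham, 1.30 to 1.42 in SH SNA and 1.23 to 1.93 in EE + SNA. In type II, the ratio of Dgkd to Dgkh averaged 1.57 times its Sham value, and that of Dgkd to Dgkk 1.38 times. For Dgkd over Dgkh it was 0.170 to 0.176 in SH Sham, 0.146 to 0.203 in EE Sham, 0.252 to 0.282 in SH SNA and 0.222 to 0.386 in EE + SNA. In each of these 4 pairs, which hold the members that rose, the 6 SNA samples and the 6 Sham samples did not overlap. For Dgkd over Dgkh this had to be so, since Dgkd lay above and Dgkh below every Sham sample. The share of such pairs among all genes was not computed. The SNA and Sham samples did overlap for Dgki over Dgkz (0.94 times), Dgkb over Dgkg (1.20 times) and Dgkh over Dgkk (0.878 times).

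EE + SNA replicate 3 had the lowest CPM of its group for 7 of 10 members. Relative to the mean of the other 2 samples of the group, it had 0.608 times the CPM for Dgki, 0.645 times for Dgkh, 0.729 times for Dgkg and 0.765 times for Dgkz, whereas Dgka, Dgkb and Dgkd were at 1.07, 1.10 and 1.01 times. In the same sample the 5 neutrophil genes summed to 584 CPM, against 126 and 136 CPM in the other 2 samples. Their sum was 57.0 to 149.6 CPM in SH Sham, 77.4 to 177 CPM in EE Sham and 96.9 to 253 CPM in SH SNA. The Schwann cell genes of EE + SNA replicate 3 summed to 11435 CPM against 8656 and 8735 CPM. Its 8 sensory neuron genes had the highest sum of the group, 7513 CPM. The part of these cells in its low values was not tested. Without it, the number of members called was 3 in EE + SNA against SH Sham (Dgkb, Dgkg and Dgki, all lower), 1 in EE + SNA against EE Sham and 8 over both housings.

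To set the family beside the rest of its pathway, lists of genes that make or use diacylglycerol were counted over both housings, where 22.4% of all genes were called. Of the 9 measured protein kinase C and D genes that diacylglycerol activates, 4 fell and 0 rose (median log2 fold change -0.17). Of 16 other effectors with a C1 domain or gated by diacylglycerol, 6 fell and 0 rose (median -0.09). Among these the Ras exchange factor Rasgrp1 fell by -0.50 on the log2 scale in SH SNA and the Rac-inactivating Chn1 by -0.23, and in the kinase list Prkce fell by -0.22 and Prkca by -0.22. Of 12 phospholipase C genes, which produce diacylglycerol, 1 rose and 2 fell (median -0.03). Plcd1 rose by 0.75 on the log2 scale in SH SNA (adjusted p = 0.00156) and Plcd4 fell by -0.43 (adjusted p = 0.00482), both by edgeR's quasi-likelihood test.

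The lists for other routes that remove diacylglycerol, or that rebuild its source, had these counts. Of the 5 lipases that break down diacylglycerol and monoacylglycerol, 2 fell and 0 rose (median -0.12), and the monoacylglycerol lipase Mgll fell by -0.22 in SH SNA. Of 2 enzymes that turn diacylglycerol into triacylglycerol, 1 rose, Dgat1, by 0.37 in SH SNA (adjusted p = 0.0499 by edgeR, close to the threshold). Of 8 phosphatidic acid phosphatases and phospholipases D, which work in the direction opposite to the kinases or supply the same product, 1 rose and 2 fell (median 0.07). Of 16 genes of phosphatidylinositol resynthesis, 3 rose and 2 fell (median -0.01). The kinases Pi4k2a and Pi4kb rose by 0.21 and 0.25 in SH SNA, while Pip5k1c and the transfer protein Pitpnm2 fell by -0.34 and -0.29.

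**Figure D4:**
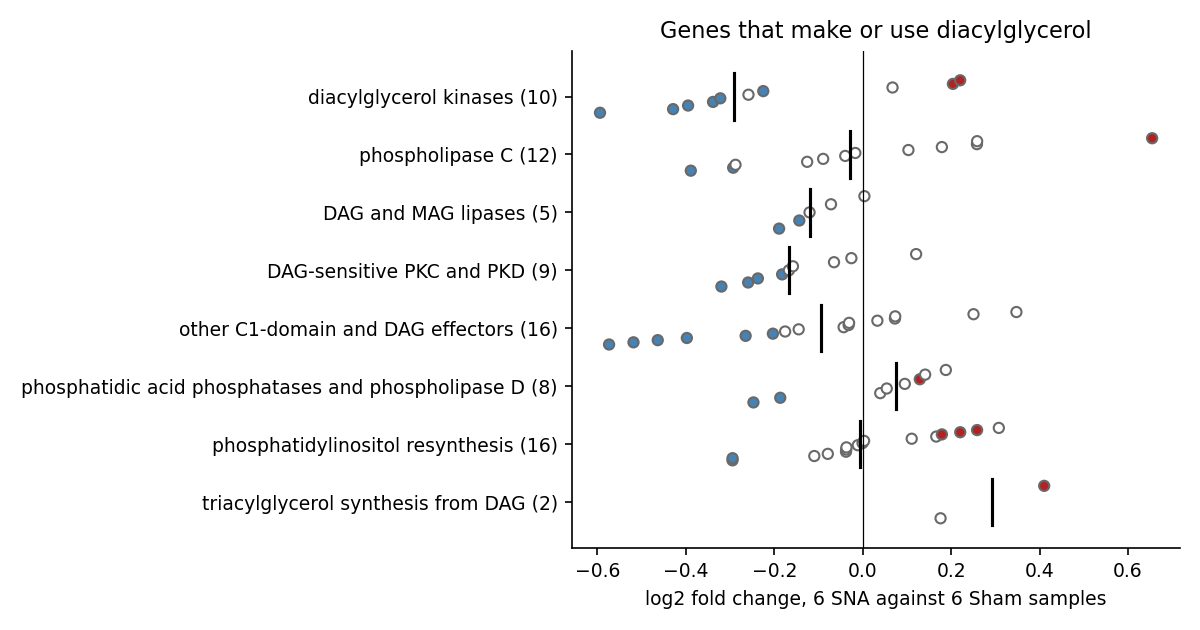
Log2 fold change of the genes of each list, 6 SNA against 6 Sham samples in the additive model, with the number of genes measured in brackets. Red points rose and blue points fell at an adjusted p of 0.05, white points did not pass, and black bars are medians. The median of the diacylglycerol kinases is -0.29, and the other medians lie between -0.17 and 0.29.

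The genes whose log2 CPM followed Dgkg most closely over the 12 samples were Prdm12 (Pearson r = 0.978), Lingo1 (0.977) and Cmtm4 (0.976). For Dgkd they were H6pd (0.956), 2900002K06Rik (0.948) and Npy (0.945). All 12 samples, SNA and Sham alike, enter these values, and r within groups was not computed for them. They were the highest of 16228 genes compared.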

How the data were processed

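RNA of 12 samples in 4 groups was analysed. The authors prepared TruSeq mRNA libraries, sequenced paired ends on an Illumina HiSeq, aligned them to mm10 with TopHat2 2.0.12 and Bowtie2 2.2.3 and counted reads per gene name with HTSeq (versions from the submitters' processing notes). The deposited count table holds whole, unnormalized read counts, and the deposited FPKM table holds FPKM, derived by the authors from these reads with a tool not given in the sources used here. Per sample, HTSeq assigned no feature to 46.7% to 47.6% of reads, and 8.49% to 9.28% did not align uniquely. Reads of both classes stayed out of library sizes. Differences were tested two-sided in edgeR 4.0.16 (R 4.3.3) by its quasi-likelihood method, after TMM scaling and filterByExpr (10 counts, total 15), at a Benjamini-Hochberg adjusted p of 0.05 over 16238 genes. FPKM served for levels and, with limma 3.58.1, for an alternative, and DESeq2 1.42.0 was another. The script was tested on simulated data.

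The members and lists were chosen with earlier results of these data known. The text names all 10 members, up to 4 genes of each pathway list with the smallest adjusted p in SH SNA against SH Sham among those called there, 6 injury genes, and the 3 genes most like the called members with the largest rise and fall. Not every gene that this rule names is reported here. Replicates of a group differed by more than counting error (chi-square per degree of freedom 3.90 to 8.76). Samples are pools of mice, and p-values measure the spread between pools. A single value with 3 against 3 samples cannot give an exact p below 0.1. Replicate numbers deviated together, with every r above the chosen 0.1 (0.111 to 0.331), in EE Sham against SH Sham only. Between unlike numbers r reached 0.194 there and 0.404 in SH SNA against SH Sham. In EE + SNA against SH SNA, like numbers had r of 0.057 to 0.126 and unlike numbers at most 0.040. The pairing of EE Sham with SH Sham rests on those correlations, since the labels do not describe one. Gene positions are from GENCODE on GRCm38, the build of mm10. Figures were drawn with Matplotlib.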

Additional observations from a re-analysis of the deposited data

How the results depend on the processing

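Over both housings, 7 or 8 members were called under every other setting but the scaling by sensory neuron genes (6), and enrichment and the interaction gave 0 throughout. Pairwise counts were less stable. For SH SNA against SH Sham, 5 members became 3 with the likelihood ratio test, 3 with DESeq2, 2 with limma on log2(FPKM + 1), with or without the filter, or log2(FPKM + 0.1), and 2 to 4 with 1 library left out. For EE + SNA against SH Sham, 4 became 6 with the likelihood ratio test or at least 10 counts in every sample, 5 with library size only, without a filter on counts or with all 12 samples in one fit, 1 with DESeq2, 1 with limma at either pseudocount, 0 without the filter on FPKM, and 1 to 4 with 1 library left out. For EE + SNA against EE Sham, 1 became 4 with the likelihood ratio test, 2 with DESeq2, 4 without a filter on counts, 0 with limma in all 3 settings, 3 with all 12 samples in one fit, and 0 to 4 with 1 library left out. The cause was not tested. Few libraries per group limit the pairwise comparisons.

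With the replicate number as a block, 6 members were called in SH SNA against SH Sham, 1 in EE + SNA against SH Sham and 1 in EE + SNA against EE Sham. It called 0 in EE Sham against SH Sham, where the numbers were taken as paired, and changed no count in the other comparisons.

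Scaling by 8 sensory neuron genes was chosen after seeing the data. It called 5 members (3 higher, 2 lower) in SH SNA and 4 (3 higher, 1 lower) in EE + SNA against SH Sham, and turned Dgkk to 0.014 in SH SNA and Dgkq to 0.059 in EE + SNA against EE Sham. Leaving out EE Sham replicate 1 or EE + SNA replicate 3 turned Dgkq there to 0.0012 or 0.0023 (range with 1 library left out -0.061 to 0.0023), and Dgki in the pooled EE effect turned to 0.011 without EE + SNA replicate 3 (range -0.15 to 0.011). None of these values was called.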
